A study of Mus musculus with 6 samples.

Results

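The genes described here control the G1 phase of the cell cycle: the D-type cyclin genes Ccnd1, Ccnd2 and Ccnd3, the kinase gene Cdk6, the CIP/KIP inhibitor genes Cdkn1b and Cdkn1c, and the INK4 inhibitor genes Cdkn2a, Cdkn2b, Cdkn2c and Cdkn2d. They were chosen by gene symbol, all 10 were among the 25067 rows of the deposited values, and all 10 passed the filter on low values that left 13210 rows for testing. The cyclin E genes and Cdkn1a were not among the 10 and are given with the rest of the pathway. RNA came from colon organoids of C57BL/6 mice, 8 weeks old by the labels, with the genotype Prkcif/fPrkczf/f;Villin-CreERT2, grown from crypts in medium with WNT3A, EGF, Noggin and R-spondin 1. Cultures received either 4-OH-Tamoxifen (4-OHT) or the ethanol vehicle at passage and were kept for 3 days, with 3 libraries per group. Both groups carry the floxed Prkci and Prkcz alleles, which encode the atypical protein kinases C (aPKC), and the inducible Cre. The Villin promoter of this Cre limits recombination to the epithelium. The submitters describe the vehicle libraries as wild type, and the drug is the only difference between the groups that the labels give. No library treated with 4-OHT but lacking the floxed alleles or Cre was analysed here, so loss of aPKC, Cre activity and 4-OHT itself cannot be told apart. The labels do not say whether the 3 libraries of a group came from separate mice or cultures, so p-values measure only the spread between these libraries.

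D-type cyclins bind the kinases CDK4 and CDK6, and the complexes phosphorylate the retinoblastoma protein RB, which releases E2F factors and lets cells enter S phase. INK4 proteins (p16, p15, p18 and p19) bind CDK4 and CDK6 and keep the D cyclins off, whereas CIP/KIP proteins (p21, p27 and p57) bind whole cyclin-kinase complexes and block CDK2 above all. In the colon crypt, dividing cells lie near the base, and cells leave the cycle as they move up and differentiate. Much of this control acts on the proteins, through phosphorylation and degradation, and only transcript levels were measured here.

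The libraries held between 15804709 and 26957612 recovered reads. Of the targeted genes, Prkcz was at 912 ± 37.9 normalized counts, that is reads divided by a size factor for each library, in vehicle and at 281 ± 13.6 in 4-OHT organoids (SD, n = 3 per group), a log2 difference of -1.70 (limma adjusted p = 3.2e-12). Prkci fell by 14.2% only, from 3520 ± 86.9 to 3021 ± 132 (SD, n = 3 per group, limma adjusted p = 8.1e-04), so at 3 days most of its reads were still present. The values are per gene, and coverage of the deleted exons was not analysed here. The epithelial markers Epcam, Cdh1, Krt8, Krt18, Krt19, Vil1 and Cdx2 were high in every library, with values summing to 385124 to 396798 in vehicle and 520107 to 563891 in 4-OHT organoids. Markers of Paneth cells and ileum summed to between 202 and 345 in the vehicle libraries. They summed to 236, 1277 and 939 in 4-OHT replicates 1, 2 and 3. Of these markers 6 of 8 were higher (limma adjusted p under 0.05), where 22.7% of all tested rows were. Those 6 were at or under 4.26 in vehicle and at or under 4.13 in 4-OHT replicate 1, so their rise rests on 4-OHT replicates 2 and 3. They passed the filter on low values only through those replicates and could thus enter the test only as rises. Their count is therefore not comparable with the share over all tested rows. Leukocyte markers (8 genes) summed to between 2.80 and 10.9 in vehicle and to 6.20 in 4-OHT replicate 1, against 225 and 107 in 4-OHT replicates 2 and 3, and smooth muscle markers (5 genes) to between 2.80 and 10.9 in vehicle and to 11.4, 57.0 and 112 in 4-OHT replicates 1, 2 and 3. Endothelial markers stayed at or under 9.11 in every library. Fibroblast markers summed to between 98.1 and 117 in vehicle and to 161, 168 and 429 in 4-OHT replicates 1, 2 and 3. On this list 4-OHT replicate 1 thus also lay above every vehicle library. Most of each sum was Vim, at 90.8 to 109 in vehicle and at 153, 151 and 249 in 4-OHT replicates 1, 2 and 3. Col3a1 was at 0 in vehicle and in 4-OHT replicate 1, and at 6.22 and 114 in 4-OHT replicates 2 and 3. Results were therefore also computed with 4-OHT replicate 1 alone against the vehicle libraries, where this lone library is assumed to vary like the vehicle libraries. The part of these other cell types in the results was not tested further. In bulk RNA, fewer cells of a type and less RNA per cell cannot be told apart.

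In 4-OHT organoids, 5 of the 10 genes were higher (Ccnd1, Ccnd2, Cdkn1c, Cdkn2a and Cdkn2b), 4 were lower (Ccnd3, Cdkn1b, Cdkn2c and Cdkn2d), and Cdk6 did not pass the test (limma with Benjamini-Hochberg adjustment over all 13210 rows, adjusted p under 0.05). Each of the 3 families thus held members that rose and members that fell. Across all tested rows 43.6% passed the same test, 22.7% as higher and 21.0% as lower. The 3 values of one group lay beyond the 3 of the other for 9 of the 10 genes, against 52.1% of all tested rows. These were 5 genes higher and 4 lower, and 26.8% and 25.3% of all tested rows. The median log2 difference was 0.13 over the 10 genes and -0.01 over all tested rows. The largest differences were those of Cdkn1c, Cdkn2d, Cdkn2c and Cdkn2b, whose absolute log2 differences exceeded those of 96.5%, 93.7%, 90.9% and 86.2% of tested rows, whereas Ccnd2 and Cdk6 ranked at 38.2% and 25.5%. With 4-OHT replicate 1 alone against vehicle, 4 genes were higher and 4 lower, where 27.0% of all tested rows passed, 14.1% as higher and 13.0% as lower, and Cdkn2a no longer passed (0.16, limma adjusted p = 0.34).

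**Figure D1:**
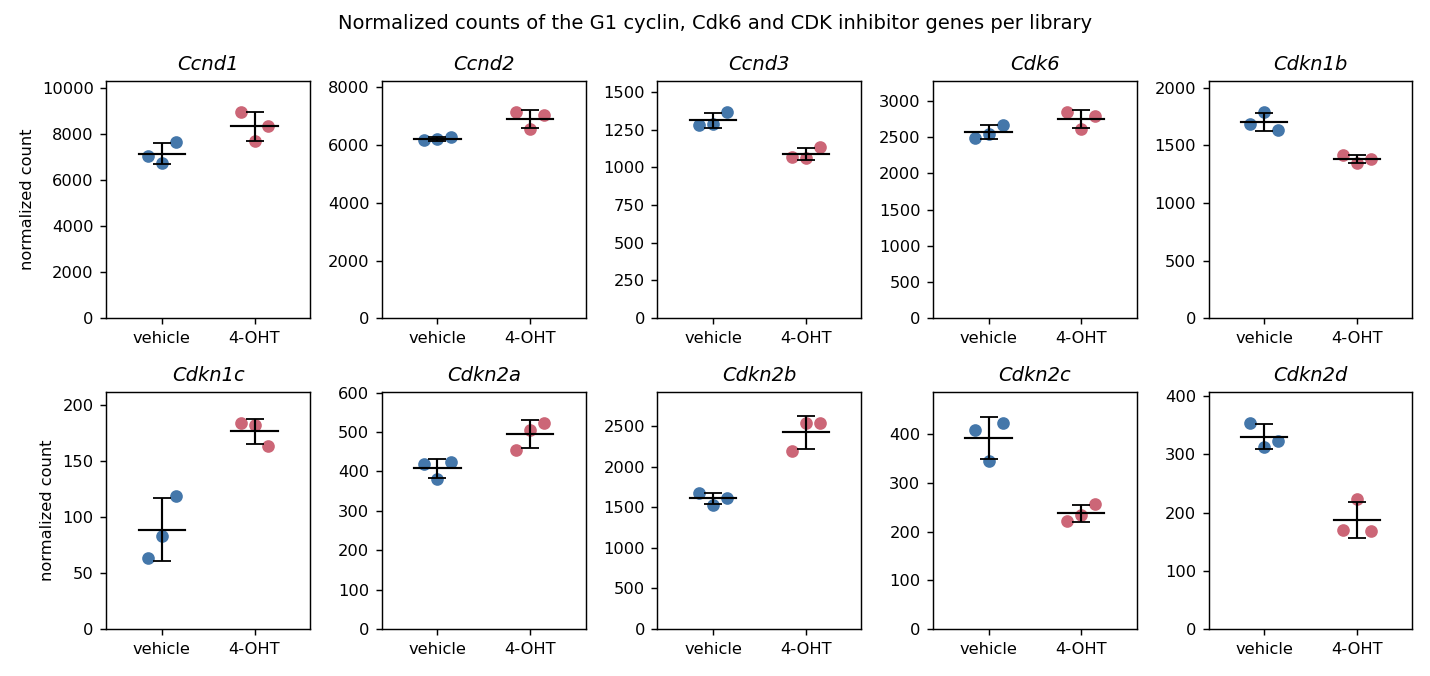
Normalized count (vertical axis, from 0) of each of the 10 genes in the 3 vehicle (blue) and 3 4-OHT (red) libraries, where a point is 1 library, the long bar the group mean and the whiskers 1 SD. The groups overlap for Cdk6 and lie apart for the other 9 genes, by a margin that ranges from 7709 against 7654 for Ccnd1 to 223 against 314 for Cdkn2d.

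Promoter sequence was available in RefSeq (GRCm38.p6) for 7 of the 10 genes, with 10 annotated starts. Ccnd1, Ccnd2 and Cdkn1c had no entry. Sequences upstream of Cdkn2a and Cdkn2b are shown because these INK4 genes are neighbours on the minus strand of chromosome 4, both rose, and the single Cdkn2a row adds up transcripts from 2 starts, the first used for p19Arf and the second for p16Ink4a, so these proteins' transcripts cannot be told apart. Cdkn1b, a CIP/KIP gene that fell, is shown beside them. Each sequence runs 5′ to 3′ toward the start, bases inside annotated exons of GENCODE vM21 were left out, and capitals mark matches to the motifs searched.
Cdkn2b, chr4:89311040-89311282, minus strand, ending 7 bases before the start: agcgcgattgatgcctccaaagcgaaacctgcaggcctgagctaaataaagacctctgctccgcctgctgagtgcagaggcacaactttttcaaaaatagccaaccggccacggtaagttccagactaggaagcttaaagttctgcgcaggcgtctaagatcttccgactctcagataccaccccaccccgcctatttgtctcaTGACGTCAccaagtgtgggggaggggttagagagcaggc
Cdkn2a first start, chr4:89294654-89294869, minus strand, ending 34 bases before the start: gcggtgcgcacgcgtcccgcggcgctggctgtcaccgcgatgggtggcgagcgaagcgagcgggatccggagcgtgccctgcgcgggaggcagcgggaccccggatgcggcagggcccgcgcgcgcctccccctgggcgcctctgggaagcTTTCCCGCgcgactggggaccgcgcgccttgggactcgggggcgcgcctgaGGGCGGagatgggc
Cdkn2a second start, chr4:89282193-89282442, minus strand: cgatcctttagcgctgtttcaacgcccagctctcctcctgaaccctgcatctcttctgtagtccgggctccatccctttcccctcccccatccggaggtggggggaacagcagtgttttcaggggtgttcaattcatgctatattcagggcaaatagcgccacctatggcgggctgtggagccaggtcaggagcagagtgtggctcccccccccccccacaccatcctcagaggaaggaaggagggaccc
Cdkn1b, chr6:134920151-134920400, plus strand: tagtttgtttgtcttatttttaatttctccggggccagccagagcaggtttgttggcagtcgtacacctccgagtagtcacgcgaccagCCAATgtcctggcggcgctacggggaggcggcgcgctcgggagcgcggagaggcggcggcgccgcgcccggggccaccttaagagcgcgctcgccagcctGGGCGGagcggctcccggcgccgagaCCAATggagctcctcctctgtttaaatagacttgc

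A total of 6 motifs was searched on both strands in the 250 bases before each of the 32851 annotated starts. The cyclic AMP response element TGACGTCA stood 46 bases before the start of Cdkn2b and before no other start of the 10 genes, and 1.55% of all starts hold it. The E2F site TTTCCCGC stood 99 bases before the first start of Cdkn2a alone, and 0.895% of all starts hold it, while TTTGGCGC (0.417% of all starts) was before none of the 10. The GC box GGGCGG was found before 6 of the 10 starts (32.7% of all starts), once before Cdkn1b and 3 times each before the first start of Cdkn2c and before Cdkn2d. The CCAAT box CCAAT was before 3 of the 10 starts (33.8% of all starts), among them Cdkn1b with 2 copies, and the E-box CACGTG before that of Cdk6 (6.02% of all starts). These matches are a description of the letters in these windows.

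Among the D-type cyclins, Ccnd1 and Ccnd2 were higher and Ccnd3 was lower. Ccnd1, which encodes cyclin D1 and is a known target of Wnt and growth factor signalling, had normalized counts of 7057, 6762 and 7654 in vehicle replicates 1, 2 and 3 and of 8970, 7709 and 8377 in 4-OHT replicates 1, 2 and 3. All 4-OHT values lay above all vehicle values, but 4-OHT replicate 2 and vehicle replicate 3 differed by a factor of only 1.01. The log2 difference was 0.22 (SE 0.05, limma adjusted p = 0.0026), or 16.6% more. Ccnd2, the gene of cyclin D2, had 6162, 6198 and 6292 in vehicle and 7150, 6555 and 7044 in 4-OHT libraries. Its vehicle values were the most even of the 10 genes (coefficient of variation 1.07%, where counting alone gives about 1.23%), and its log2 difference was 0.15 (SE 0.04, limma adjusted p = 0.0084). With quantile normalization neither gene passed (Ccnd1 0.13, limma adjusted p = 0.065, and Ccnd2 0.07, limma adjusted p = 0.19).

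Ccnd3, the gene of cyclin D3, fell from 1279, 1287 and 1367 in vehicle to 1065, 1063 and 1135 in 4-OHT libraries, a log2 difference of -0.27 (SE 0.06, limma adjusted p = 7.2e-04). Its lowest vehicle value was 1.13 times its highest 4-OHT value. Exons of Ccnd1 share 1100 bases with those of the gene LTO1 on the opposite strand, and exons of Ccnd3 share 361 bases with Bysl. Whether the counting used strand is not given in the sources used here, so reads in these stretches may belong to either gene. LTO1 rose from 407 to 474 (log2 difference 0.22, limma adjusted p = 0.027), a level far below that of Ccnd1, and Bysl went from 996 to 926 (-0.10, limma adjusted p = 0.18).

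Levels of different genes were compared per kilobase of exon, as normalized count per kb. On this scale Ccnd1 made up most of the cyclin D transcripts, with 1520 ± 96.4 in vehicle and 1774 ± 134 in 4-OHT organoids, followed by Ccnd2 with 661 ± 7.10 and 735 ± 33.7 and Ccnd3 with 149 ± 5.51 and 124 ± 4.65 (SD, n = 3 per group). The 3 genes together went from 2330 ± 108 to 2633 ± 167 per kb (SD, n = 3 each), 13.0% more. The groups nearly touched, at 2450 in vehicle replicate 3 and 2455 in 4-OHT replicate 2. This sum was computed with the deposited scaling only. Ccnd1 held 65.2% ± 1.14 of this sum in vehicle and 67.3% ± 0.904 in 4-OHT libraries, Ccnd2 28.4% ± 1.05 and 27.9% ± 0.587, and Ccnd3 6.41% ± 0.114 and 4.72% ± 0.317 (SD, n = 3 each). The share of Ccnd3 was between 6.34% and 6.55% in vehicle and between 4.36% and 4.94% in 4-OHT libraries, while those of Ccnd2 overlapped.

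**Figure D2:**
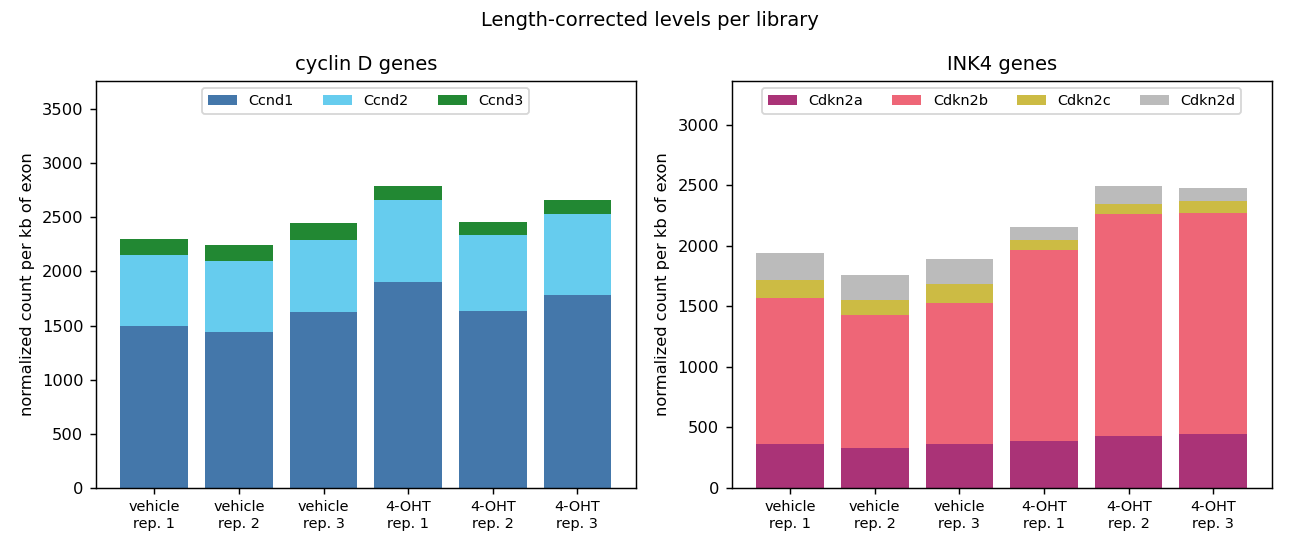
Normalized count per kb of exon (vertical axis, from 0) of the cyclin D genes (left) and the INK4 genes (right) stacked for each of the 6 libraries. Ccnd1 is the largest part of the left bars, Cdkn2b is the largest part of the right bars and grows from 62.2% to 73.5% of the INK4 sum, and the parts of Cdkn2c and Cdkn2d shrink.

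Cdk6, 1 of the 2 kinases that D cyclins activate, had 2486, 2543 and 2673 in vehicle and 2846, 2610 and 2795 in 4-OHT libraries. The groups overlapped, since 4-OHT replicate 2 lay below vehicle replicate 3, and the log2 difference of 0.10 (SE 0.05) did not pass the test (limma adjusted p = 0.12). Its 95% interval ran from -0.01 to 0.20. It passed without 4-OHT replicate 2 (0.14, limma adjusted p = 0.041). Cdk4, the other kinase, fell from 5095 ± 187 to 4637 ± 108 (SD, n = 3 each), a log2 difference of -0.14 (SE 0.04, limma adjusted p = 0.018), which did not pass without vehicle replicate 3 (-0.11, limma adjusted p = 0.076), without 4-OHT replicate 3 (-0.12, limma adjusted p = 0.090) or with 4-OHT replicate 1 alone (-0.10, limma adjusted p = 0.22). Per kb of exon Cdk4 was at 1568 ± 57.7 and Cdk6 at 184 ± 6.84 in vehicle organoids (SD, n = 3 each).

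The CIP/KIP genes Cdkn1b and Cdkn1c moved in opposite directions. Cdkn1b, which encodes p27, had 1684, 1790 and 1632 in vehicle and 1416, 1348 and 1380 in 4-OHT libraries. Every 4-OHT value was below every vehicle value, and the log2 difference was -0.30 (SE 0.05, limma adjusted p = 1.4e-04). Cdkn1c, which encodes p57 and is expressed from the maternal allele only, had 63.4, 83.0 and 119 in vehicle and 184, 181 and 163 in 4-OHT libraries. It had the lowest group means of the 10 genes per kb of exon, with 68 to 178 reads per library, and was the most uneven in vehicle (coefficient of variation 31.7%, where counting alone gives about 10.5%), with vehicle replicate 3 the highest of that group. Even so its lowest 4-OHT value was 1.37 times its highest vehicle value, and its log2 difference was the largest of the 10, at 1.03 (SE 0.18, limma adjusted p = 9.8e-05), or 2.04 times. Leaving out single libraries moved it between 0.82 and 1.27, and with 4-OHT replicate 1 alone it was 1.1 (limma adjusted p = 0.017). Its exons share 625 bases with the antisense gene Gm44732, which has no row of that name in the deposited values. Without known strand the reads of the pair cannot be told apart.

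Cdkn1a, the p53 target gene that encodes p21, rose from 4620 ± 339 to 7133 ± 439 (SD, n = 3 each), a log2 difference of 0.63 (SE 0.05, limma adjusted p = 2.0e-08). Per kb of exon it was at 1300 ± 95.5 in vehicle and 2008 ± 123 in 4-OHT organoids, against 374 ± 17.7 and 303 ± 7.57 for Cdkn1b and 43.3 ± 13.7 and 86.3 ± 5.66 for Cdkn1c (SD, n = 3 per group). Cdkn1b thus held 21.8% ± 0.881 of the CIP/KIP sum in vehicle and 12.7% ± 0.899 in 4-OHT libraries, and Cdkn1c 2.56% ± 0.956 and 3.6% ± 0.26 (SD, n = 3 each). The shares of Cdkn1c overlapped, with 3.61% in vehicle replicate 3 and 3.41% in 4-OHT replicate 3.

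Among the INK4 genes, Cdkn2b and Cdkn2a were higher and Cdkn2c and Cdkn2d lower. Cdkn2b, which encodes p15 and is known as a target of TGF-beta signalling, had 1677, 1532 and 1617 in vehicle and 2192, 2544 and 2535 in 4-OHT libraries. The lowest 4-OHT value, in replicate 1, was still 1.31 times the highest vehicle value, and the log2 difference was 0.59 (SE 0.06, limma adjusted p = 1.5e-07), or 0.45 with 4-OHT replicate 1 alone (limma adjusted p = 8.3e-04). Cdkn2a had 419, 381 and 425 in vehicle and 455, 506 and 524 in 4-OHT libraries. The groups did not overlap, but 4-OHT replicate 1 was only 1.07 times vehicle replicate 3, and the log2 difference of 0.28 (SE 0.08, limma adjusted p = 0.011) did not pass without vehicle replicate 2 (0.23, limma adjusted p = 0.069), without 4-OHT replicate 3 (0.23, limma adjusted p = 0.059) or with 4-OHT replicate 1 alone (0.16, limma adjusted p = 0.34).

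Cdkn2c, the gene of p18, fell from 410, 344 and 424 in vehicle to 222, 233 and 257 in 4-OHT libraries. All 3 4-OHT values were below the lowest vehicle value by a factor of at least 1.34, and the log2 difference was -0.72 (SE 0.10, limma adjusted p = 1.0e-05). Cdkn2d, the gene of p19Ink4d, which is unrelated to p19Arf, fell from 355, 314 and 323 to 169, 223 and 168, with 4-OHT replicate 2 standing above the other 4-OHT libraries, and its lowest vehicle value was 1.41 times that value. The log2 difference was -0.83 (SE 0.12, limma adjusted p = 9.0e-06), the largest fall of the 10 genes. Both falls passed with 4-OHT replicate 1 alone, at -0.81 and -0.96 (limma adjusted p = 0.0014 and 3.9e-04).

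Per kb of exon, Cdkn2b was the highest of the INK4 genes in both groups, at 1158 ± 52.5 in vehicle and 1744 ± 144 in 4-OHT organoids, and Cdkn2a followed with 348 ± 20.4 and 422 ± 30.6 (SD, n = 3 each). Cdkn2d went from 210 ± 13.6 to 119 ± 19.8 and Cdkn2c from 146 ± 15.8 to 88.4 ± 6.69 (SD, n = 3 each). The INK4 sum went from 1862 ± 96.6 to 2373 ± 189 per kb (SD, n = 3 each), 27.4% more, since the rise of Cdkn2b was larger on this scale than the falls of Cdkn2c and Cdkn2d. This sum holds the whole Cdkn2a row, p19Arf transcripts included, and was computed with the deposited scaling only. Cdkn2b made up 62.2% ± 0.618 of it in vehicle and 73.5% ± 0.282 in 4-OHT libraries. The shares of Cdkn2d went from 11.3% ± 0.371 to 5.0% ± 0.68 and those of Cdkn2c from 7.83% ± 0.525 to 3.73% ± 0.213, while Cdkn2a went from 18.7% ± 0.423 to 17.8% ± 0.403 (SD, n = 3 each).

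Across the 10 genes, the order per kb of exon in vehicle organoids was Ccnd1, Cdkn2b, Ccnd2, Cdkn1b, Cdkn2a, Cdkn2d, Cdk6, Ccnd3, Cdkn2c and Cdkn1c. Cdkn1b and Cdkn2a, and Ccnd3 and Cdkn2c, were neighbours that lay within their spread of each other. In 4-OHT organoids, the means of Ccnd1 (1774 ± 134) and Cdkn2b (1744 ± 144) differed by less than their spread, as did those of Ccnd3 (124 ± 4.65) and Cdkn2d (119 ± 19.8) and of Cdkn2c (88.4 ± 6.69) and Cdkn1c (86.3 ± 5.66) (SD, n = 3 each). Cdkn2a stood above Cdkn1b there, at 422 ± 30.6 against 303 ± 7.57 (SD, n = 3 each). Lengths are those of all annotated exons of a gene, so a gene whose long exons are little used is placed too low.

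**Figure D3:**
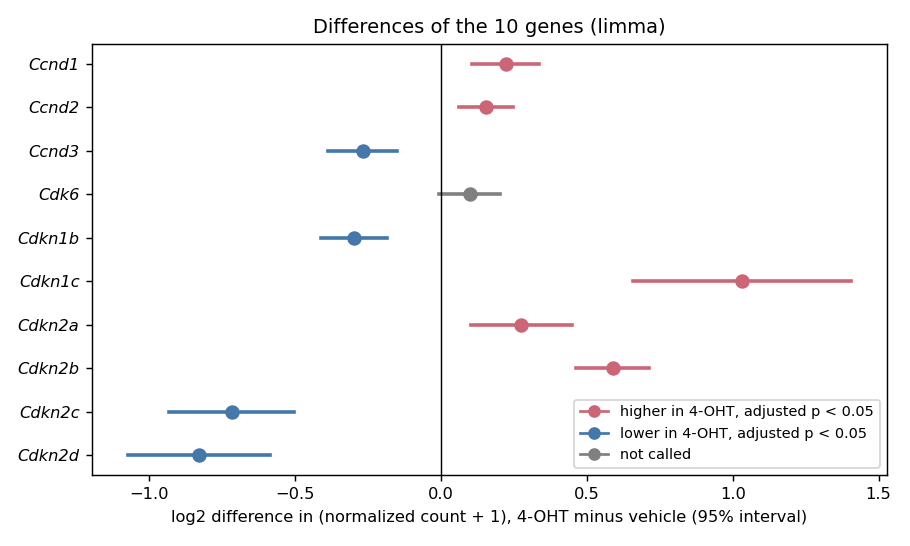
Log2 difference of the 10 genes between 4-OHT and vehicle organoids (horizontal axis) with its 95% interval from the limma fit, in red for genes called higher, blue for genes called lower and grey for Cdk6, which was not called. The intervals of Cdkn2b (0.46 to 0.71) and Cdkn1c (0.66 to 1.40) lie to the right of 0, and those of Cdkn2c (-0.93 to -0.51) and Cdkn2d (-1.07 to -0.59) to the left.

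Ratios between genes within a library do not depend on the scaling between libraries, so they show how far members moved apart. With 3 libraries per group the exact two-sided permutation test cannot go below p = 0.10. The log2 ratio of Ccnd3 to Ccnd1 was -2.46, -2.39 and -2.48 in vehicle and -3.07, -2.86 and -2.88 in 4-OHT libraries, a difference of -0.49 (exact permutation p = 0.10, the smallest possible). The groups had to lie apart since both genes did so in opposite directions, so this p was fixed by the single genes and adds no support. The log2 ratio of Ccnd2 to Ccnd1 differed by -0.07 with overlapping groups (exact permutation p = 0.30), and no difference between these 2 cyclin genes was detectable with 3 libraries per group. The log2 ratio of Cdk6 to Cdk4 was -0.99 in each vehicle library and -0.73, -0.83 and -0.69 in 4-OHT libraries, a difference of 0.23 (exact permutation p = 0.10). The ratio of Cdkn2d to Cdkn2c differed by -0.11 (exact permutation p = 0.70), from 3 vehicle values of -0.21, -0.13 and -0.39 and 4-OHT values of -0.39, -0.07 and -0.61.

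A pair of further ratios was chosen after the values were seen, each of a gene that rose to a gene that fell without overlap, so the groups had to lie apart and the ratios are given as a description, with no test. The log2 ratio of Cdkn2b to Cdkn2c was 2.03, 2.15 and 1.93 in vehicle and 3.30, 3.44 and 3.30 in 4-OHT libraries, a shift of 1.31, which is a 2.47-fold change of the ratio. That of Cdkn1c to Cdkn1b was -4.71, -4.41 and -3.77 in vehicle and -2.94, -2.89 and -3.08 in 4-OHT libraries, a shift of 1.33 or 2.52-fold.

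**Figure D4:**
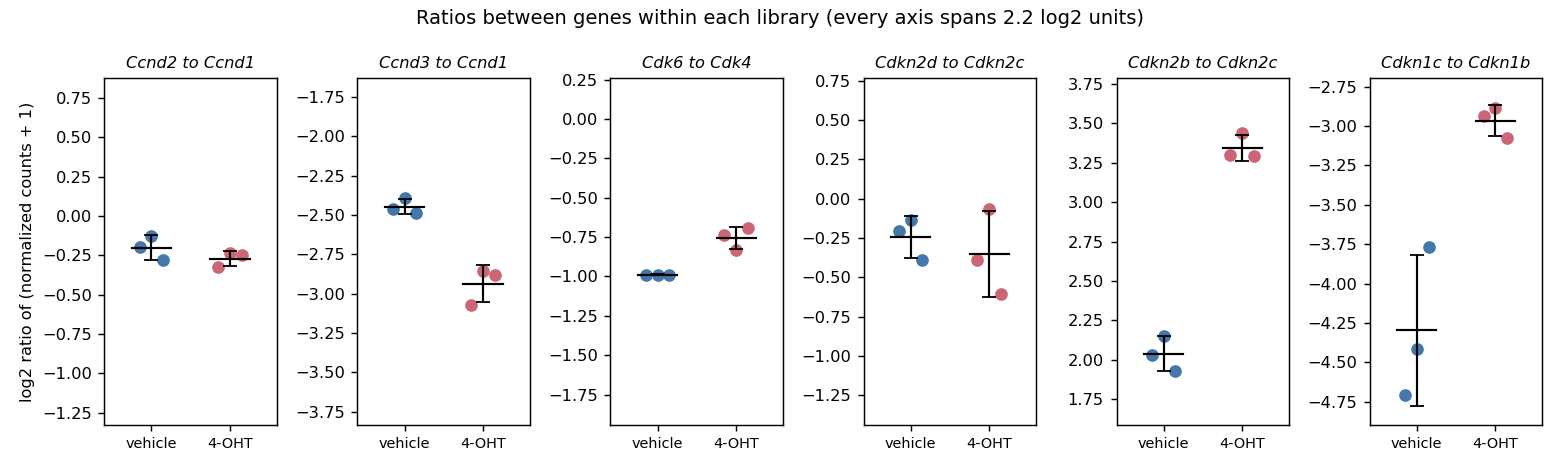
Log2 ratio of normalized counts between 2 genes of 1 library (vertical axis, 2.2 log2 units in every panel), with a point per library, the group mean as a long bar and 1 SD as whiskers, for vehicle (blue) and 4-OHT (red). The groups lie apart for Cdk6 to Cdk4, as they must for Ccnd3 to Ccnd1, Cdkn2b to Cdkn2c and Cdkn1c to Cdkn1b, whose genes moved in opposite directions, and overlap for Ccnd2 to Ccnd1 and Cdkn2d to Cdkn2c.

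The rest of the G1/S pathway was described with a list of 36 other genes, of which 4 were higher and 20 lower (limma adjusted p under 0.05), with a median log2 difference of -0.23, against 22.7% higher, 21.0% lower and a median of -0.01 over all tested rows. With 4-OHT replicate 1 alone, 3 were higher and 14 lower, beside 14.1% higher and 13.0% lower over all tested rows in that fit. The cyclin E genes, whose products activate CDK2 after cyclin D, fell together with their kinase. Ccne1 went from 361 ± 36.9 to 272 ± 26.9 (log2 difference -0.41, SE 0.10, limma adjusted p = 0.0032), Ccne2 from 208 ± 27.5 to 148 ± 10.8 (-0.48, SE 0.13, limma adjusted p = 0.0043) and Cdk2 from 1150 ± 39.3 to 811 ± 79.4 (-0.51, SE 0.07, limma adjusted p = 5.9e-06) (SD, n = 3 each). With 4-OHT replicate 1 alone Ccne2 was just short of the threshold (-0.51, limma adjusted p = 0.051). Of the kinase that activates CDKs, Cdk7 rose (0.27, limma adjusted p = 0.0041), and Ccnh (-0.16) and Mnat1 (0.13) did not pass.

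Of the RB family, Rb1 fell from 522 ± 51.5 to 369 ± 41.0 (SD, n = 3 each, log2 difference -0.50, SE 0.10, limma adjusted p = 2.5e-04) and Rbl1, the gene of p107, also fell (-0.57, limma adjusted p = 1.0e-06), while Rbl2 did not pass (-0.24, limma adjusted p = 0.060). Among 10 E2F and DP genes, 8 fell, from E2f4 (-0.19) and Tfdp1 (-0.27) to E2f8, an atypical repressor E2F, which went from 630 ± 3.20 to 314 ± 40.1 (SD, n = 3 each, log2 difference -1.01, SE 0.09, limma adjusted p = 2.4e-08). E2f5 (0.19) and E2f6 (-0.18) did not pass. With 4-OHT replicate 1 alone E2f3, E2f4 and Tfdp2 also missed the threshold, as each did in 1 to 3 of the other alternatives. Of 8 genes for the turnover of G1 regulators, Skp2, the ubiquitin ligase subunit that marks p27 for degradation, fell by 0.81 on the log2 scale (SE 0.10, limma adjusted p = 2.5e-06), as did its cofactor Cks1b (-0.40) and Fbxo5, an inhibitor of the anaphase-promoting complex (-0.81, SE 0.08, limma adjusted p = 1.2e-07). Fbxo4, an F-box gene linked to cyclin D1 turnover, rose (0.52, SE 0.10, limma adjusted p = 2.2e-04), and so did Fbxw7, which marks cyclin E (0.20, limma adjusted p = 0.030). Fbxw7 missed the threshold in 6 of 17 alternatives, namely DESeq2, leaving out vehicle replicate 1 or 2 or 4-OHT replicate 1 or 2, and 4-OHT replicate 1 alone, with adjusted p between 0.052 and 0.10. Ambra1, Fbxo31 and Fzr1 did not pass. In the MuvB and DREAM complex, 3 of 6 fell, among them Mybl2 (-0.71). Another of them, Lin9 (-0.36), missed the threshold in 4 of 17 alternatives, among them leaving out vehicle replicate 1 or 3 or 4-OHT replicate 3.

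**Figure D5:**
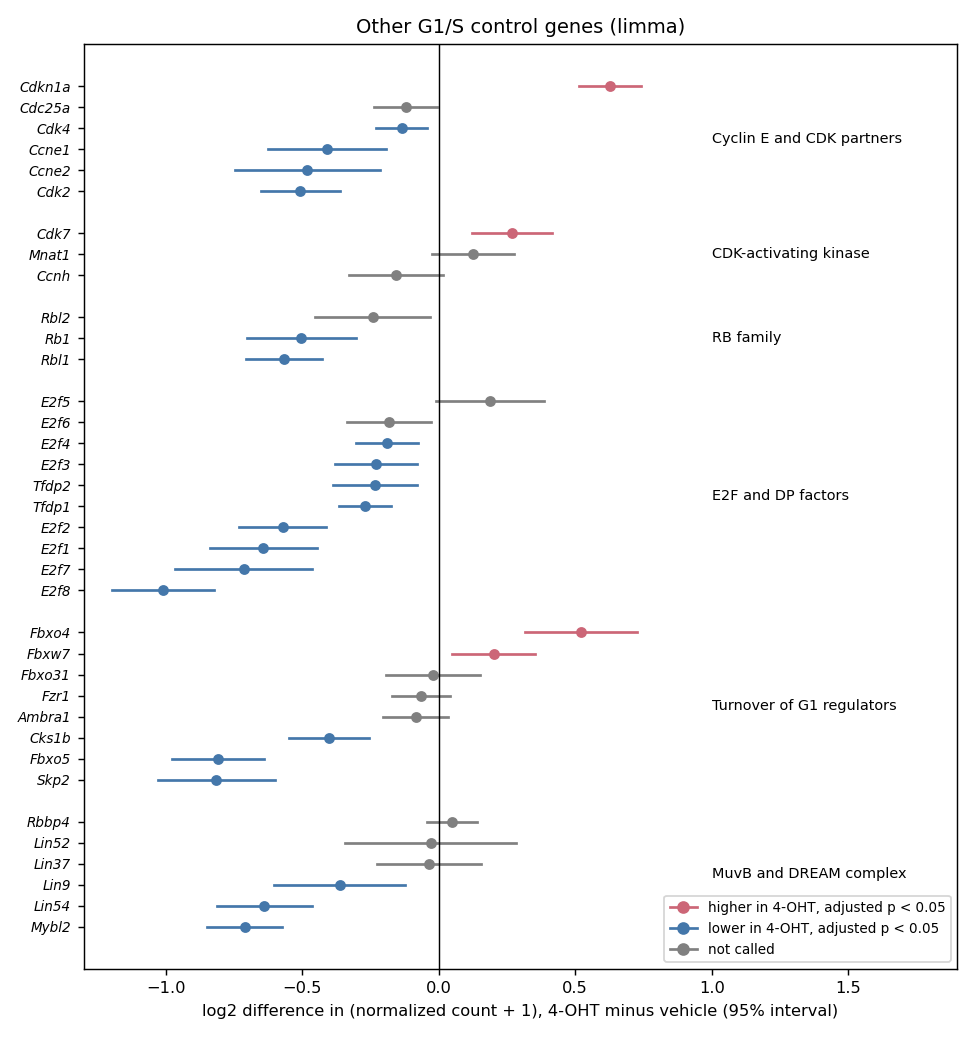
Log2 difference with its 95% interval (horizontal axis) of 36 other G1/S control genes, grouped by role and coloured by call as in the plot of the 10 genes. Most of the E2F, RB and cyclin E genes lie to the left of 0, and Cdkn1a, Fbxo4, Cdk7 and Fbxw7 are the 4 genes called higher.

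Proliferation and differentiation markers also differed between the groups. All 10 proliferation markers fell, with a summed normalized count of 39383 to 41754 in vehicle and 22516 to 24988 in 4-OHT libraries, and Mki67 was at 11357 ± 315 in vehicle and at 5636 ± 781 in 4-OHT organoids (SD, n = 3 per group), limma adjusted p = 6.5e-10. Of 7 stem cell markers 6 fell (sums of 15581 to 15996 against 11302 to 12333). Of the colonocyte markers 5 of 8 rose (sums of 47733 to 53379 against 53791 to 57864). Most of that sum was Ceacam1, which did not pass (42229 ± 2162 and 42293 ± 1171, SD, n = 3 each). Of the 5 that rose, Car4 was at or under 2.42 in vehicle and at 5.17, 11.4 and 50.1 in 4-OHT replicates 1, 2 and 3. It passed the filter on low values only through the 4-OHT libraries. Aqp8, another of the 5, overlapped between the groups, with 32.6 in vehicle replicate 2 and 18.7 in 4-OHT replicate 2. Enteroendocrine markers rose in 5 of 6 cases (607 to 873 against 977 to 1150). Of the goblet markers 5 of 7 rose and Fcgbp fell (7367 to 9369 against 8417 to 9395). Among the 2 tested tuft markers, Avil rose and Trpm5 did not pass. Over all tested rows 22.7% were higher and 21.0% lower. The part of these cell states in the differences of the cyclin and inhibitor genes was not tested.

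The tested genes whose profile was nearest to that of Cdkn1c, the largest rise, were Clip4, H60c and Cd40, with Euclidean distances of 0.31, 0.32 and 0.34 over the 6 libraries between log2 values taken relative to each gene's vehicle mean. For Cdkn2d, the largest fall, they were Fzd4, Otub2 and Ddit3, at 0.11, 0.17 and 0.18.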

How the data were processed

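RNA-seq of colon organoids was analysed in 6 libraries, 3 vehicle and 3 4-OHT, grouped by the sample titles. The deposited values are normalized counts (a signal for which the authors scaled each library's reads by a size factor), not corrected for length. The submitters' processing notes name STAR, DESeq2 and the build GRCm39, and the counting tool is not given in the sources used here. Multiplied by the size factor, 100% of the values came out whole, with a tolerance of 0.1 reads, and these reads were used for the count tests. The paper supplied with the series does not describe this experiment.

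The log2 of the normalized count plus 1 was compared with limma-trend (limma 3.58.1, R 4.3.3) over the 13210 rows with a mean of at least 10, with a threshold of 0.05 on the Benjamini-Hochberg adjusted p. Of 6 within-library ratios, 4 were compared with an exact permutation test, and 2 chosen on their values were not tested. Scripts were tested on simulated data. Alternatives were pseudocounts of 0.1 and 10, no filter, a minimum mean of 50, TMM factors, quantile normalization, thinning to the smallest library, the replicate block, leaving out libraries, and count tests by edgeR 4.0.16 and by DESeq2 1.42.0. Exon lengths came from GENCODE vM21 (GRCm38) and promoters from RefSeq (GRCm38.p6). Neither is the authors' build, and no coordinate was moved between builds. Intervals of 95% come from the limma fit.

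The genes named are the 10 members, Prkci, Prkcz, Cdk4, Cdk2, Ccne1, Ccne2, Cdkn1a, Rb1 and Mki67, and the 3 largest rises and 3 largest falls among the other pathway genes past the threshold. Others are named as list members or because they overlap a member. The members and lists were chosen with earlier results of these data known.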

Additional observations from a re-analysis of the deposited data

How the results depend on the processing

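Over the 17 alternatives, 164 of 170 log2 differences of the 10 genes stayed on the same side of 0 and of the threshold, and none reversed. The 6 others are those of Ccnd1 and Ccnd2 with quantile normalization, of Cdk6 without 4-OHT replicate 2, and of Cdkn2a in the 3 fits named in the report. The count of genes called higher was 3 with quantile normalization. It ranged from 4 to 6 over the fits with a single library missing, while that of genes called lower was 4 in every alternative. The cause was not tested. The 36 other pathway genes gave 3 to 4 calls higher and 16 to 22 lower when each library was left out. The replicate block gave 5 higher and 4 lower among the 10 genes, and changed no call among them. Same-numbered libraries correlated between -0.02 and 0.03 after group means were removed, so the numbers show no pairing.

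The log2 ratio of Cdkn2d to Cdkn2c reversed without 4-OHT replicate 3 (0.017), with a range of -0.25 to 0.017 when each library was left out. The other ratios kept their direction, between -0.53 and -0.42 for Ccnd3 to Ccnd1, -0.11 and -0.031 for Ccnd2 to Ccnd1, 0.20 and 0.27 for Cdk6 to Cdk4, 1.25 and 1.36 for Cdkn2b to Cdkn2c and 1.13 and 1.6 for Cdkn1c to Cdkn1b. With pairs of the same number, the 4 tested ratios cannot go below an exact permutation p of 0.25. No alternative moved the median of all tested rows by as much as 0.1. Depth limits Cdkn1c most, with 68 reads in its lowest library.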
